A study of Mus musculus with 11 samples.

Results

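Oxidative phosphorylation is carried out by 4 respiratory complexes and the ATP synthase of the inner mitochondrial membrane, here called complexes I to V. Most of their subunits are encoded in the nucleus, and a small core of complexes I, III, IV and V is encoded in mitochondrial DNA. Complex I takes electrons from NADH and complex II from succinate, complex III passes them to cytochrome c, complex IV hands them to oxygen, and complex V uses the proton gradient to make ATP. Some complex IV subunits exist as paired genes, one used widely and one typical of heart and skeletal muscle.

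The nuclear subunit genes were taken by symbol from a table of 21846 genes, namely the rows for Ndufa, Ndufb, Ndufc, Ndufs and Ndufv subunits with a number, Sdha to Sdhd, Uqcr, Cox4 to Cox8 and Atp5. Pseudogene symbols were left out, which removed 2 rows, and 85 genes remained. They comprised 35 genes of complex I, 4 of complex II, 8 of complex III, 20 of complex IV and 18 of complex V. Ndufa4 and Ndufa4l2 were counted with complex IV, where their proteins are now placed. The 13 subunits of the mitochondrial genome were not found by symbol among the table's rows and so were not analysed here.

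The 11 RNA-seq libraries came from MamBo cell lines, grown from mammary tumors of virgin female FVBhuHER2 mice, which carry human HER2 as a transgene. MamBo89HER2stable was grown from tumor A and kept HER2. MamBo43HER2labile was grown from tumor B, and MamBo38HER2loss came from a tumor that injected MamBo43 cells had formed. Each line was sequenced untreated, after 30 days with trastuzumab (an antibody against HER2) at 30 µg/ml followed by 30 days without it, and after 60 days with it. There were 2 untreated libraries of MamBo89 and of MamBo38 and 1 of MamBo43, and every treated arm had 1 library. One untreated MamBo89 library carries the name AG3 and was taken as the HER2-positive clone named in the methods of the study. The HER2-positive group held 5 libraries (4 MamBo89 and the untreated MamBo43) and the HER2-negative group held 6 (4 MamBo38 and 2 trastuzumab-treated MamBo43, which the study describes as having lost HER2 in most cells, with a minority still positive, so that these 2 libraries are mixed). All HER2-negative libraries thus trace to tumor B, where untreated MamBo43 is the only HER2-positive library. Fits with tumor of origin in the model, or of tumor B libraries alone, therefore both rest on that 1 library and are not separate checks. Each line is a single culture lineage, MamBo38 descends from MamBo43, and nothing in the labels says that libraries of 1 group came from separate cultures, so the p-values measure the spread between these libraries, which may be technical.

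Library totals ran from 17040454 to 27127662 estimated counts, and the 85 genes took 0.889% to 1.095% of them. Mesenchymal markers summed to 19644 to 41456 CPM (counts scaled to library size) in the HER2-negative libraries and to 170.2 to 2354 CPM in the HER2-positive ones, with all 5 genes called higher. Mammary epithelial markers summed to 1.35 to 1800 CPM and to 2472 to 3890 CPM, respectively, with 4 of 6 genes called lower. Skeletal muscle markers were low, at 0.607 to 2.84 CPM in sum in HER2-negative and 0.117 to 0.598 CPM in HER2-positive libraries. The gap between these sums was smaller than the worth of 3 counts (0.114 to 0.179 CPM), and none of the 3 genes separated the groups by itself. By comparison, adipocyte markers did not exceed 0.114 CPM and endothelial markers did not exceed 0.723 CPM. Leukocyte markers summed to 3.67 to 49.8 CPM in HER2-negative and to 1.02 to 16.7 CPM in HER2-positive libraries, with 1 of the 4 genes at 0 throughout and the 1 gene that was tested called higher. By the number code in their names, 3 of the 4 MamBo38 libraries shared one code and the other 8 libraries another (the shared code below), so code and line largely coincided, and what the codes stand for is not stated. The transgene was not among the table's rows, so the HER2 state of a library was taken from its label and the study's description. The part of the cell state markers and of the codes in the results on subunit genes was not tested, beyond the values for the shared code given beside them.

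First, the regulatory sequence in front of these genes was considered, because several nuclear subunit genes share promoter elements. RefSeq promoters on GRCm38.p6, from 250 bases before to 50 bases after the start, were matched for 68 of 84 symbols, as 73 promoters. The NRF1 motif (GCGC, any 2 bases and GCGC again) stood in 26% of them and in 6.23% of 32851 mouse promoters. The ETS core CCGGAAG stood in 23.3% against 8.86%, and the YY1 motif AAGATGGC in 13.7% against 2.75%. A TATA box, TATAAA, stood in 12.3% against 13.6%. Both strands were searched. Among the 11 genes called between HER2 states, 8 had a promoter sequence, of which 1 held the ETS core (Sdhb), 1 the NRF1 motif (Atp5g2) and 0 the YY1 motif or the TATA box, while Cox6a2, Ndufa4l2 and Uqcrb had no entry. The promoters of Sdhb and Atp5g2, whose genes were called higher, are printed beside those of Ndufa4 and Cox7a1, whose genes were called lower, and capitals mark the motifs. Their positions are chr4:140961021-140961320 (plus strand), chr15:102670998-102671297 (minus strand), chr6:11907401-11907700 (minus strand) and chr7:30183921-30184220 (plus strand), in that order.
Sdhb: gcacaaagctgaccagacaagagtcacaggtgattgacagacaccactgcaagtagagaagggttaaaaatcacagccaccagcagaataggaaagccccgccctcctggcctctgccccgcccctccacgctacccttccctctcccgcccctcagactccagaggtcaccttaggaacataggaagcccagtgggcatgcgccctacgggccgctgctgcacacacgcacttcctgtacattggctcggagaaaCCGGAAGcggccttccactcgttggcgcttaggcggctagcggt
Atp5g2: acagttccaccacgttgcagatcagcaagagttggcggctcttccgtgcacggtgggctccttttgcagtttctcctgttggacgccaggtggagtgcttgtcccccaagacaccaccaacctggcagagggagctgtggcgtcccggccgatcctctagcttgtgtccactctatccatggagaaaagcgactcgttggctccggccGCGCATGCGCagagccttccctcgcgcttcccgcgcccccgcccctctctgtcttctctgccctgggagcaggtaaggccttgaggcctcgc
Ndufa4: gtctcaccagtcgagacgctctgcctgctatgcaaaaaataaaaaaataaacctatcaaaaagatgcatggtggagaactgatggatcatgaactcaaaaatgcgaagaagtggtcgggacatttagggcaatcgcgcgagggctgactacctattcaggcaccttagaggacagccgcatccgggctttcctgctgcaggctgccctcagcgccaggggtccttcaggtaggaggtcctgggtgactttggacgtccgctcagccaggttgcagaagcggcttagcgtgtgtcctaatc
Cox7a1: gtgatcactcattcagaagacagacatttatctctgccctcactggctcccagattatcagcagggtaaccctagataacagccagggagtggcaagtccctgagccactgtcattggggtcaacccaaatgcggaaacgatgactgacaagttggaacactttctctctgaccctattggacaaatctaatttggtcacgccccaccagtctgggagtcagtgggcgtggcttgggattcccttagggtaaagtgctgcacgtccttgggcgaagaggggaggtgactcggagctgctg
A motif match is a description of the letters, and binding was not measured here.

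The first comparison asked which subunit genes differed between HER2-negative and HER2-positive cells. Of the 85 genes, 79 passed the filter on low counts. A gene was called at an edgeR adjusted p below 0.1 with a change of at least 1 on the log2 scale. In HER2-negative cells 5 subunit genes were called higher (Cox6a2, Ndufa4l2, Sdhb, Ndufa12 and Atp5g2) and 6 lower (Cox7a1, Ndufb2, Ndufa4, Ndufc2, Ndufb11 and Uqcrb). These 11 made up 13.9% of the 79, whereas 32.8% of all 12364 genes tested were called (15.8% higher and 17% lower). By adjusted p alone, 15 subunit genes were higher (19%, background 29%) and 21 lower (26.6%, background 31.3%). The median log2 fold change was −0.04 for the subunit genes and −0.04 for all genes, and 69.6% of the subunit genes lay within 0.5 of 0, against 40.2% of all genes. Values did not overlap between the groups for 9 higher and 12 lower genes, or 11.4% and 15.2%, where the backgrounds were 17.7% and 17.2%.

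**Figure D1:**
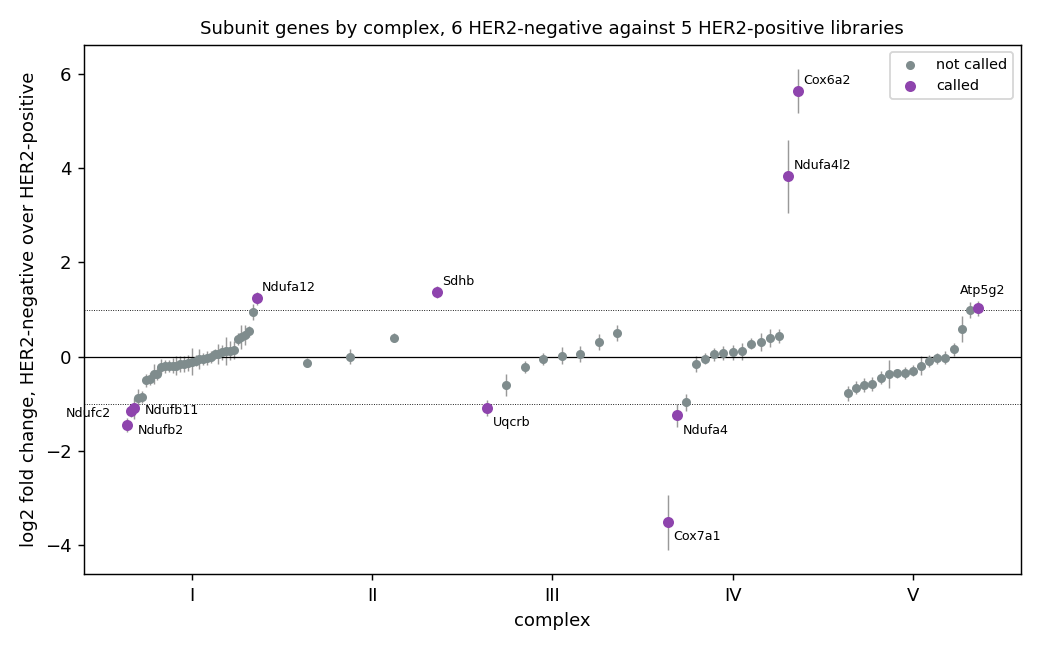
Log2 fold change (HER2-negative over HER2-positive, with standard error) of the 79 tested subunit genes, ordered by value inside each complex on the x axis. Purple points were called, dotted lines mark a change of 1, and most genes lie near 0 while Cox6a2 (5.64) and Cox7a1 (−3.51) stand at the ends.

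Summed over its genes, complex I reached 2490 ± 364 CPM in the 6 HER2-negative libraries (mean ± SD) and 2513 ± 146 CPM in the 5 HER2-positive ones. Complex II gave 518 ± 21.7 against 414 ± 48.2 CPM, and complex III 813 ± 43.6 against 874 ± 66.2 CPM. Complex IV gave 1859 ± 177 against 1866 ± 163 CPM, and complex V 4133 ± 383 against 3603 ± 374 CPM. Such sums weigh abundant genes most, and 13 of the 17 tested complex V genes had a negative log2 fold change (median −0.29). The mean of log2(CPM + 1) over genes averaging at least 1 CPM was also taken. HER2-negative minus HER2-positive, it was −0.12, 0.42, −0.10, 0.40 and −0.11 for complexes I to V. For the sums of complexes I, III, IV and V the ranges of the groups overlapped. Those of complex II overlapped as well, by a single library, since untreated MamBo43 stood at 499 CPM and the HER2-negative libraries began at 494 CPM. The 4 MamBo89 libraries lay lower, from 381 to 404 CPM. The mean log2 values did not overlap for complex II (6.91 to 7.01 in HER2-negative, 6.45 to 6.76 in HER2-positive libraries). Nor did they for complex IV (6.42 to 6.74 and 6.05 to 6.30), whose mean includes Cox6a2 and Ndufa4l2 but not Cox7a1, which averaged too low. In these bulk libraries, fewer cells that express a gene and less RNA from each cell cannot be told apart.

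In complex IV, the paired isoform genes held the largest changes. Cox6a2, the heart and muscle form of subunit 6a, was measured at 21.0, 13.2, 24.5 and 20.2 CPM in MamBo38 and at 16.3 and 22.9 CPM in treated MamBo43. It was at 0.470 CPM in untreated MamBo43 and at 0.682, 0.368, 0.350 and 0.0544 CPM in MamBo89, where 1 to 14 counts supported it. Every HER2-negative library lay above every HER2-positive one, and the estimated change was 5.64 ± 0.47 (log2 scale, ± SE; edgeR adjusted p = 7.1e-06). Its widely expressed partner Cox6a1 remained the more abundant of the pair per transcript length, at 311 against 28.9 CPM per kb in HER2-negative cells, and its own change was 0.11 ± 0.19 (edgeR adjusted p = 0.64). The ratio of Cox6a2 to Cox6a1 (both in CPM) was 0.076 to 0.138 in HER2-negative libraries and did not exceed 0.00697 in HER2-positive ones.

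Cox7a1, the corresponding muscle form of subunit 7a, went the other way. It stood at 3.05 CPM (78 counts) in untreated MamBo43 and at 0.584, 1.29, 0.990 and 1.80 CPM in MamBo89. The HER2-negative libraries held 1 to 5 counts each, or 0.0384 to 0.245 CPM. The groups did not overlap, with a change of −3.51 ± 0.59 (edgeR adjusted p = 0.00053), a fitted value that depends on the prior count at such low levels. Cox7a2, the common form, was at 91.7 ± 10.8 CPM against 101 ± 25.9 CPM (log2 fold change −0.15, edgeR adjusted p = 0.45). Thus the muscle forms of 2 subunits differed in opposite directions between the same libraries. The 3 skeletal muscle markers, whose sums were higher in the HER2-negative libraries, did not pass the filter on low counts in this comparison. In treated against untreated MamBo43, Acta1 was called higher (log2 fold change 4.07, edgeR adjusted p = 0.0265) and Myh1 was not called (2.19). In treated MamBo43 against MamBo38, 1 of the 2 markers tested was called higher and 1 lower. The part of muscle marker expression in the Cox6a2 and Cox7a1 values was not tested.

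Ndufa4 and Ndufa4l2 formed another pair. Ndufa4, a complex IV subunit, was at 76.6 to 86.3 CPM in the 4 MamBo38 libraries, at 111 and 105 CPM in treated MamBo43, at 153 CPM in untreated MamBo43 and at 148 to 186 CPM in 3 MamBo89 libraries. The AG3 culture stood apart at 392 CPM. The change was −1.24 ± 0.25 (edgeR adjusted p = 0.0016), and without AG3 it was −0.89, short of the change of 1 required for a call. With tumor of origin in the model it was −0.77. Ndufa4l2, a homolog known to be induced by low oxygen, was at 5.04, 2.73, 5.61 and 5.31 CPM in MamBo38, at 4.65 and 2.42 CPM in treated MamBo43, at 1.06 CPM in untreated MamBo43 and at 0.0460 to 0.163 CPM in MamBo89, the last from 1 to 3 counts per library. The groups did not overlap (log2 fold change 3.83 ± 0.77, edgeR adjusted p = 0.0017), and untreated MamBo43 lay between the others. Without that library the change was 5.47, in tumor B libraries it was 1.98, and in untreated libraries the call was lost (edgeR adjusted p = 0.134). Ndufa4 was still above Ndufa4l2 per transcript length in HER2-negative cells, at 148 against 4.597 CPM per kb.

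**Figure D2:**
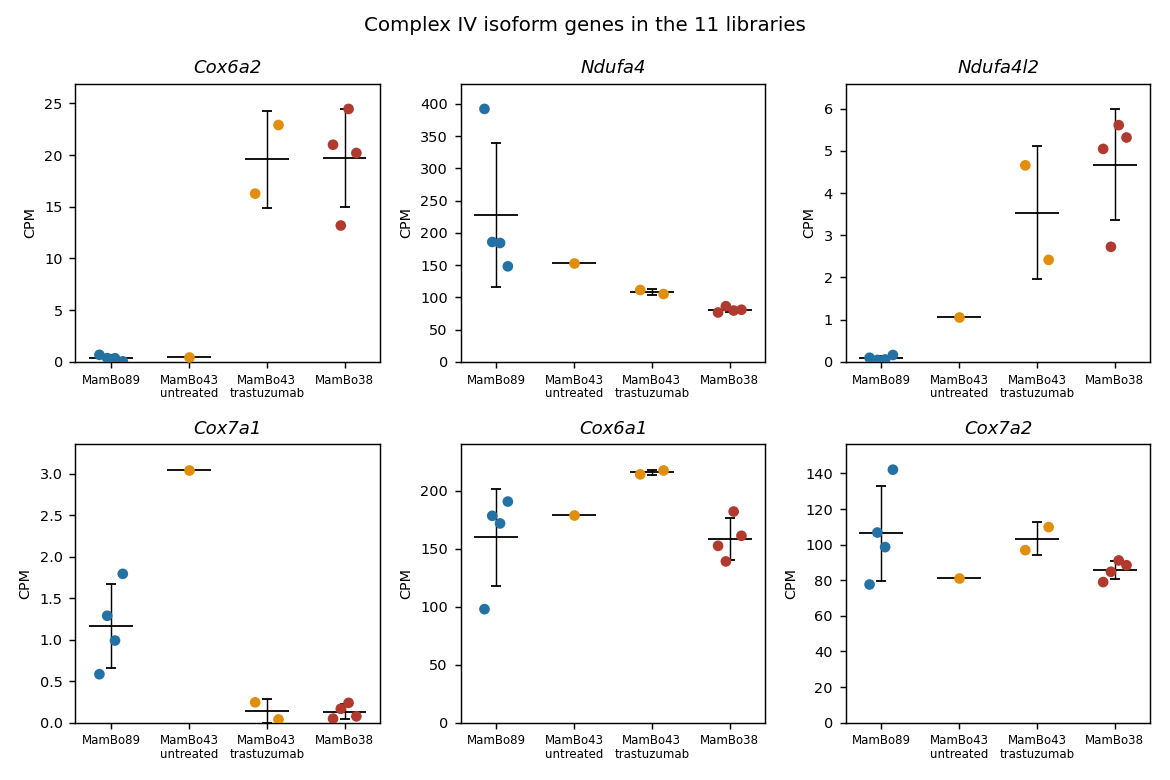
CPM of 6 complex IV isoform genes in the 11 libraries (each point a library, horizontal line the mean, bars 1 SD; the untreated MamBo43 group is a single library). Cox6a2 and Ndufa4l2 are high in treated MamBo43 and MamBo38, Cox7a1 and Ndufa4 are high in MamBo89 and untreated MamBo43, and AG3 is the highest Ndufa4 point at 392 CPM.

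The other isoform families of complex IV showed smaller differences or little expression. Cox4i1 was at 365 ± 27.3 CPM against 351 ± 67.5 CPM (log2 fold change 0.05, edgeR adjusted p = 0.79), and Cox4i2, its alternative form, had 0 to 4 counts. Cox6b1 and Cox8a had log2 fold changes of 0.08 and 0.09 and were not called. Cox6b2 had at most 1 count, and Cox7b2, Cox8b and Cox8c had 0 counts in all 11 libraries, so these genes and Cox4i2 were not tested, nor was a second row for Atp5o, at 0 in all libraries. Cox7b, on the X chromosome, was at 81.8 ± 13.3 CPM against 159 ± 37.4 CPM, with a log2 fold change of −0.97 just short of a call.

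In complex II, which links the citric acid cycle to the respiratory chain, 1 of the 4 subunit genes was called, where 32.8% of all genes were. Sdhb, the iron-sulfur subunit, was at 117, 131, 127 and 121 CPM in MamBo38 and at 109 and 111 CPM in treated MamBo43. It was at 50.6 CPM in untreated MamBo43 and at 34.8, 49.2, 55.0 and 40.8 CPM in MamBo89. The groups were fully apart, with a change of 1.37 ± 0.13 (edgeR adjusted p = 1.4e-05). Sdha, the flavoprotein that sits with Sdhb, had a log2 fold change of −0.00 ± 0.16, and the membrane anchors Sdhc and Sdhd had −0.12 ± 0.10 and 0.41 ± 0.10. Sdhd passed the adjusted p (0.0063 in edgeR) without reaching the size of a call, and Sdha and Sdhc did not (0.99 and 0.33). The change of Sdhd ran from 0.11 to 0.50 across the alternatives, and from 0.37 to 0.48 with single libraries left out. The ratio of Sdhb to Sdha, in CPM, ran from 0.507 to 0.950 in HER2-negative and from 0.191 to 0.341 in HER2-positive libraries.

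Complex V showed a similar split between its partner subunits. Atp5b, the catalytic beta subunit, was the most abundant of the 85 genes per transcript length. It was at 1630, 1825, 1715 and 1581 CPM in MamBo38, 1741 and 2235 CPM in treated MamBo43, 1242 CPM in untreated MamBo43 and 983, 789, 787 and 672 CPM in MamBo89. Its log2 fold change of 0.99 ± 0.17 (edgeR adjusted p = 0.00067) lay just below the size of a call, and it passed that size under DESeq2 (1.002) and without the AG3 culture (1.04). It was 0.52 with tumor of origin in the model (edgeR adjusted p = 0.151) and 0.80 in untreated libraries (0.114), and did not pass in either. In tumor B libraries, where untreated MamBo43 is the only HER2-positive library, it was 0.49. Atp5a1, the alpha subunit that alternates with Atp5b in the same ring, moved oppositely, at 470 ± 45.6 CPM against 708 ± 154 CPM (log2 fold change −0.60 ± 0.15, edgeR adjusted p = 0.0056). Its change ran from −1.06 to −0.46 across the alternatives. It was called with tumor of origin in the model, but did not pass the adjusted p in every alternative. The ratio of Atp5b to Atp5a1 was between 3.08 and 5.49 in HER2-negative and between 0.994 and 1.36 in HER2-positive libraries, with no overlap. These ratios were chosen after the values were seen.

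**Figure D3:**
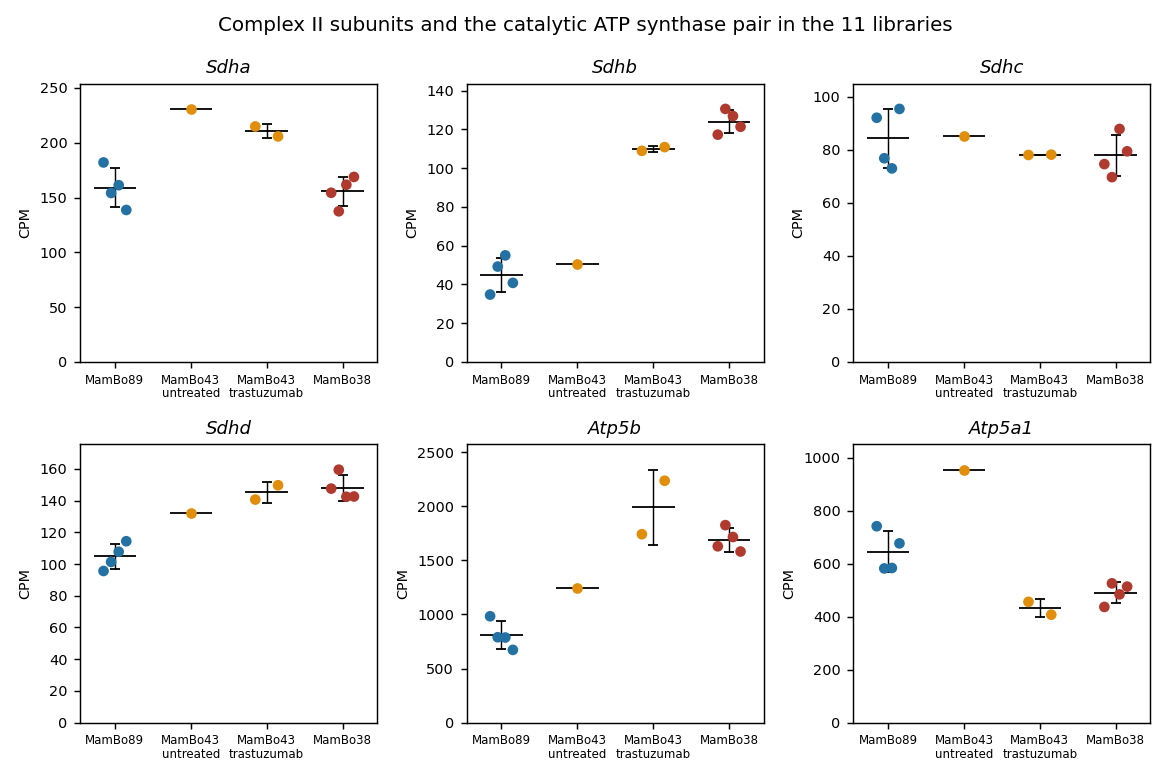
CPM of the 4 complex II genes and of Atp5b and Atp5a1 in the 11 libraries (points, libraries; line, mean; bars, 1 SD). Sdhb and Atp5b are higher and Atp5a1 lower in treated MamBo43 and MamBo38 than in untreated MamBo43 and MamBo89, while Sdha and Sdhc overlap.

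The 3 genes for the c subunit of the ATP synthase, which encode the same mature protein, also differed. Atp5g2 was at 134 ± 13.2 CPM against 65.6 ± 13.9 CPM (log2 fold change 1.03 ± 0.15, edgeR adjusted p = 0.00024), and without AG3 its log2 fold change was 0.93. Atp5g3 was at 152 ± 24.1 CPM against 191 ± 20.9 CPM (−0.34 ± 0.13, edgeR adjusted p = 0.044) and Atp5g1 did not pass, at 0.59 ± 0.28. By adjusted p alone, 8 of 17 tested complex V genes were lower and 2 were higher (31.3% and 29% of all genes), the lowest being Atp5mpl at −0.78 ± 0.15.

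In complex I, 1 gene was called higher and 3 lower of 35, where 15.8% and 17% of all genes were. Ndufa12, an accessory subunit, was at 103 ± 17.7 CPM against 43.1 ± 4.88 CPM (log2 fold change 1.24 ± 0.14, edgeR adjusted p = 3.3e-05), and with tumor of origin in the model its change was 0.998, short of a call. Ndufb2 was at 16.2 ± 3.28 CPM against 43.8 ± 2.80 CPM (−1.44 ± 0.15), and Ndufc2 at 30.3 ± 4.41 CPM against 67.1 ± 8.42 CPM (−1.15 ± 0.13). For these 3 genes the groups did not overlap. Ndufb11, on the X chromosome, was at 91.0 ± 23.0 CPM against 194 ± 51.7 CPM (log2 fold change −1.096 ± 0.22), with overlapping groups. Its change was −0.43 with tumor of origin in the model, where it was not called. Among libraries with the shared code it was not called either. Among the core subunits, Ndufs7 was higher by adjusted p alone (0.54 ± 0.12, edgeR adjusted p = 0.0028), and Ndufs1, Ndufs3, Ndufs8, Ndufv1 and Ndufv2 had values from −0.16 to 0.15 and did not pass.

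In complex III, Uqcrb, which binds ubiquinone, was at 45.0 ± 8.12 CPM against 94.6 ± 21.2 CPM (log2 fold change −1.08 ± 0.17, edgeR adjusted p = 0.00032), without overlap. It fell below the size of a call without the AG3 culture (−0.95) and among libraries with the shared code (−0.90). The core proteins Uqcrc1 and Uqcrc2 had log2 fold changes of 0.06 ± 0.16 and −0.22 ± 0.13, the iron-sulfur protein Uqcrfs1 had −0.04 ± 0.13, and none of the 3 passed. The highest value of the complex was that of Uqcrq, 0.51 ± 0.17 (edgeR adjusted p = 0.024). Across the alternatives it ran from 0.04 to 0.65, and from 0.40 to 0.65 with single libraries left out.

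Several of these genes changed together with the genes around them. For each subunit gene, the median log2 fold change of the other tested genes that start within 1 Mb was taken, a distance chosen after the values were seen. On chromosome 10 the median over 591 other genes was 0.60, and all 6 tested subunit genes there were positive. On chromosome 15 it was 0.61 over 502 genes with 4 of 4 positive, and on the X chromosome −0.66 over 386 genes with 0 of 3 positive. Ndufa12 on chromosome 10 changed by 1.24 and its 12 neighbours, all of them positive, by a median of 1.26. Uqcrb on chromosome 13 changed by −1.08 and its 25 neighbours, none positive, by a median of −1.15. Atp5g2 (1.03 against 1.05), Ndufb11 (−1.096 against −0.998) and Ndufc2 (−1.15 against −0.91) also lay near their neighbours. Atp5b, on chromosome 10, changed by 0.99 against 0.57, and Sdhb, on chromosome 4, by 1.37 against 0.54. Ndufb2, on chromosome 6, changed by −1.44 against −0.58 for its 13 neighbours.

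Other genes departed from their surroundings. Cox6a2 on chromosome 7 (128205435 to 128206387, minus strand, GRCm38) changed by 5.64 while its 50 neighbours had a median of −0.54. Cox7a1 (chromosome 7, 30184144 to 30186078, plus strand) changed by −3.51 against −0.47. Ndufa4l2 (chromosome 10, 127514967 to 127517154, plus strand) changed by 3.83 against 0.87. Ndufa4 had only 2 tested neighbours. Across the 75 subunit genes with 5 or more neighbours, Spearman's rho between gene and neighbours was 0.53 and Pearson's r was 0.39. In treated against untreated MamBo43, over 76 genes, they were 0.275 and 0.176, and in treated MamBo43 against MamBo38 0.253 and 0.267. Genes are not independent replicates, nearby genes share neighbours and all values come from the same libraries, so no p is given. DNA copy number was not measured here, and its part was not tested.

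**Figure D4:**
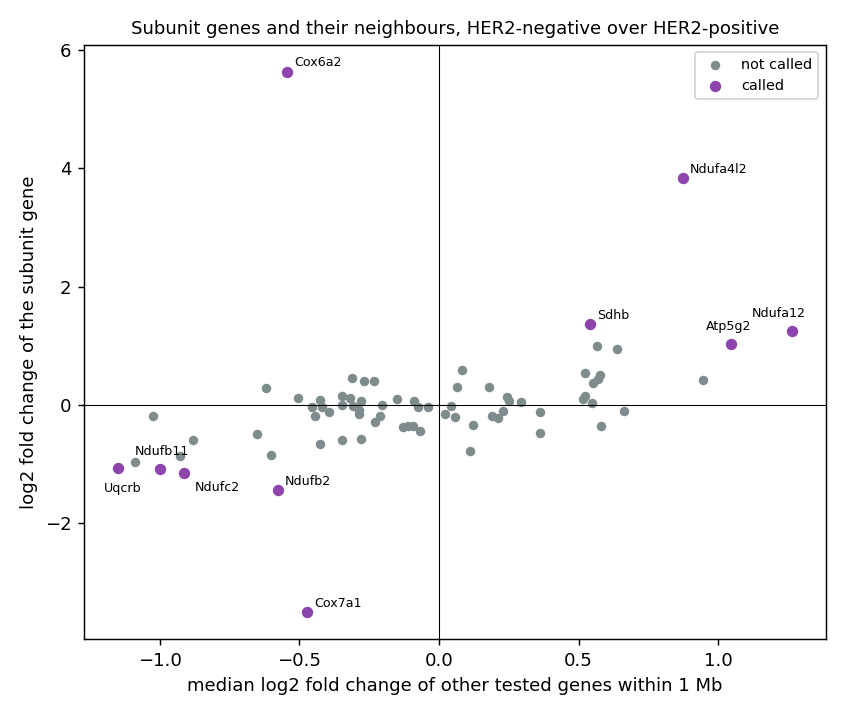
Log2 fold change of each subunit gene (y axis) against the median of the other tested genes within 1 Mb (x axis), HER2-negative over HER2-positive, for 75 genes with 5 or more neighbours. Ndufa12, Atp5g2, Uqcrb, Ndufb11 and Ndufc2 lie close to their neighbours' values, while Cox6a2, Ndufa4l2 and Cox7a1 lie far from them.

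The second comparison asked what differed when MamBo43 cells were cultured with trastuzumab, with 2 treated libraries against 1 untreated library, so that the untreated value has no spread of its own and the test borrows it from the other libraries. Here 6 subunit genes were called higher (7.59% of 79, background 13.6%) and 4 lower (5.06%, background 15.5%). On the log2 scale Cox6a2 changed by 5.36 ± 0.85 (edgeR adjusted p = 0.0014), Sdhb 1.12 ± 0.25 (0.0081), Ndufa12 1.22 ± 0.21 (0.0024), Ndufb9 1.16 ± 0.31 (0.019), Atp5g2 1.03 ± 0.31 (0.030) and Ndufa4l2 1.73 ± 0.66 (0.070). Lower were Cox7a1 (−4.44 ± 0.95, edgeR adjusted p = 0.0066), Atp5a1 (−1.15 ± 0.20, 0.0025), Ndufc2 (−1.08 ± 0.26, 0.011) and Ndufb2 (−1.01 ± 0.21, 0.0056). Atp5a1 went from 955 CPM to 456 and 407 CPM. With a single treated library, the call was lost for Ndufa4l2 (1.16 without the library that ended 30 days off trastuzumab, and also by adjusted p, 0.104 in edgeR, without either of 2 MamBo38 libraries) and for Ndufb2 (−0.92 without the library kept on it). Counting every alternative for this comparison, Ndufa4l2 lost its call in 4 of 15. All 3 MamBo43 libraries carried the same name code and the same tumor of origin. They are also part of the first comparison, so these values are not independent of it.

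The X-linked genes that were lower in the first comparison were close to 0 in this one. Ndufb11 was at 122 CPM untreated and at 127 and 112 CPM treated (log2 fold change −0.03 ± 0.25), and Cox7b was at 98.7 CPM and at 88.8 and 106 CPM (−0.02 ± 0.19). In untreated MamBo43 against MamBo89 the 3 subunit genes of the X chromosome were all negative, with a median of −0.80, and the other 462 genes there had a median of −0.69. Uqcrb fell short of a call (−0.97 ± 0.27, edgeR adjusted p = 0.020) and all 28 of its neighbours were negative, with a median of −1.02. Ndufa4 was at 153 CPM untreated and at 111 and 105 CPM treated (−0.50 ± 0.44, edgeR adjusted p = 0.42).

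Untreated MamBo43 was then set against the 4 MamBo89 libraries, both HER2-positive. A single subunit gene was called, Ndufa4l2 (3.46 ± 0.62, edgeR adjusted p = 0.0034), which is 1.27% of 79 against 18.9% of all genes. By adjusted p alone 13 were higher (16.5%, background 15.3%) and 7 lower (8.86%, background 12.5%). MamBo38 against MamBo89 gave 6 calls higher and 8 lower, or 17.7% against 41.9% of all genes. They were the 11 genes called between HER2 states together with Atp5b (1.06 ± 0.15), Cox7b (−1.23 ± 0.11) and Ndufa1, an accessory subunit of complex I on the X chromosome (−1.20 ± 0.11). Ndufa1 was at 28.4 to 30.8 CPM in MamBo38, at 38.7 CPM in untreated MamBo43 and at 60.1 to 80.0 CPM in MamBo89.

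The 2 kinds of HER2-negative cells also differed from each other. Treated MamBo43 had 4 subunit genes called higher than MamBo38 and 0 lower by edgeR, or 5.06% against 20.4% of all genes, and DESeq2 called 4. By adjusted p alone, however, 34 subunit genes were higher and 3 lower. That is 43% higher, where 20.4% of all genes were higher, and 3.8% lower, where 18.2% were. The differences were mostly modest, with a median log2 fold change of 0.26 for the subunit genes and 0.01 for all genes. In complex I, 33 of 35 genes were positive, 20 of them by adjusted p, and the median was 0.39. Ndufv2, a core iron-sulfur subunit, was at 49.8, 50.1, 50.3 and 53.0 CPM in MamBo38 and at 126 and 109 CPM in treated MamBo43 (1.21 ± 0.12, edgeR adjusted p = 9.7e-05). Ndufb6 was at 36.8 to 40.9 CPM and at 86.5 and 91.6 CPM (1.20 ± 0.13). Atp5j2 and Atp5g1 were called in complex V, at 1.15 ± 0.21 and 1.03 ± 0.14.

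Untreated MamBo43 was itself at 93.7 CPM for Ndufv2 and 71.4 CPM for Ndufb6, between MamBo38 and the treated cells. Complex I summed to 2159 to 2400 CPM in MamBo38, 2550 CPM in untreated MamBo43, and 2917 and 2975 CPM in treated MamBo43. The count of 34 rested on both treated libraries, as it was 17 or 18 with either left out. It was 7 among libraries of the shared code, where MamBo38 had a single library. All 6 mammary epithelial markers were also called higher in treated MamBo43 than in MamBo38, and their part in this difference was not tested.

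**Figure D5:**
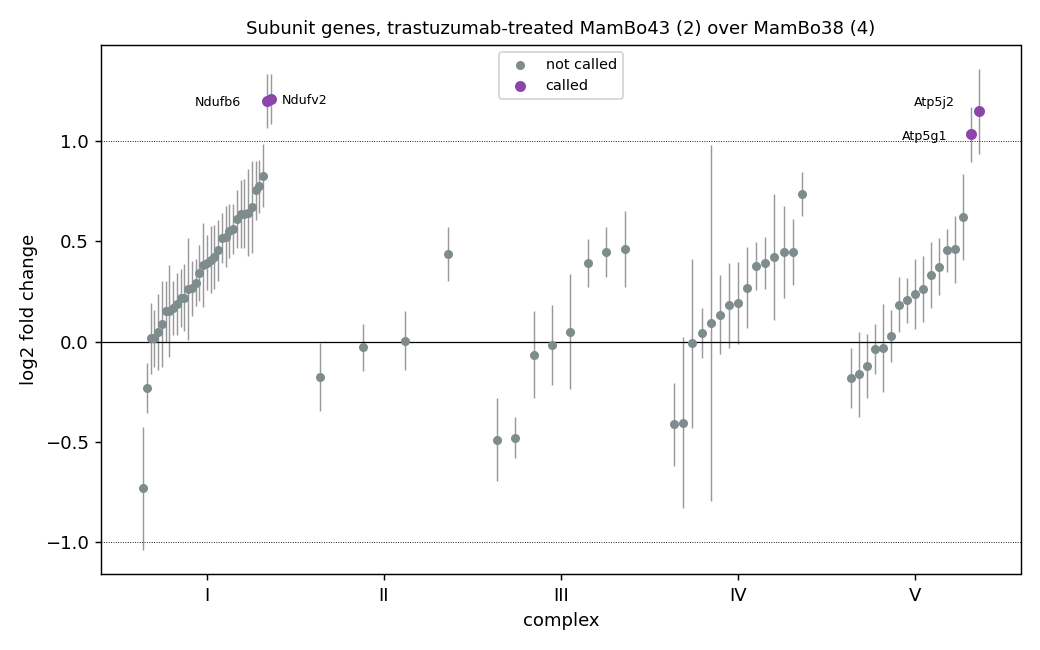
Log2 fold change with standard error of the 79 tested subunit genes, 2 treated MamBo43 libraries over 4 MamBo38 libraries, by complex. In complex I 33 of 35 points lie above 0, and the 4 called genes (purple) are Ndufv2, Ndufb6, Atp5j2 and Atp5g1.

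In MamBo89 and in MamBo38, the treated libraries were also set against the untreated ones of the same line. In MamBo89, 0 of 77 tested subunit genes were called by edgeR or by DESeq2 and 0 had an unadjusted edgeR p under 0.05. By edgeR, 0% of all genes were called and 1.54% had such a p. Log2 fold changes ran from −0.80 (Ndufa4) to 0.58. Since AG3 was 1 of the 2 untreated libraries, the count depended on it. With AG3 as the only untreated library, 3 of 78 genes were called (Ndufa4, Ndufa6 and Ndufa8), when 18.4% of all genes were. In MamBo38, 0 of 78 were called by either tool and 1 had an unadjusted edgeR p under 0.05 (Ndufa6, log2 fold change 0.40). By edgeR, 0% of all genes were called and 4.24% had such a p. Every subunit value lay between −0.17 and 0.47. Without the untreated MamBo38 library that lacks the shared code, 1 gene was called, and 23 were higher and 2 lower by adjusted p alone, when 8.73% of all genes were called and 42.6% passed the adjusted p in either direction. Whether the response of MamBo43 differed from that of the other lines was not tested.

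Genes that build or regulate the complexes were followed on lists of their own. Of 47 tested assembly factors, 0 were called higher and 4 lower between HER2 states, where 15.8% and 17% of all genes were. They were Cox20 (−1.89 ± 0.18), Pet100 (−1.46 ± 0.20) and Coa7 (−1.09 ± 0.23), which serve complex IV, and Sdhaf1 (−1.12 ± 0.21), which serves Sdhb. By adjusted p alone 12 were higher and 13 lower (backgrounds 29% and 31.3%), with a median of 0.04. The 6 electron carriers and acyl carrier protein genes gave no call, and of 13 citric acid cycle genes only Idh3g was called (−1.36 ± 0.14). Of 14 regulators, 3 were called higher and 1 lower, and 32.8% of all genes were called in either direction. Ppargc1a, a coactivator that raises mitochondrial gene expression, was at 5.63 ± 2.91 CPM in HER2-negative and 22.2 ± 3.47 CPM in HER2-positive libraries (−1.99 ± 0.39, edgeR adjusted p = 0.0015). Myc (1.67 ± 0.19), Hif1a (1.66 ± 0.18) and Nrf1 (1.05 ± 0.13), all transcription factors, were called higher. Mitochondrial ribosomal protein genes gave 6 calls higher and 0 lower of 78 by edgeR, and cytosolic ones 4 higher and 1 lower of 76. By adjusted p alone, 32 mitochondrial ones were higher and 11 lower (median 0.19), and 40 cytosolic ones were higher and 5 lower (median 0.39). The backgrounds were 15.8% and 17% for calls, and 29% and 31.3% by adjusted p alone.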

How the data were processed

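The 11 RNA samples were sequenced in single-end mode on a NextSeq 500 from TruSeq v2 libraries, which do not mark strand. The authors aligned reads with STAR 2.5 and made the deposited expected counts per gene with RSEM 1.3.0 (build mm10, per the labels). All were whole numbers, so rounding changed none. Counts were tested with edgeR 4.0.16 (R 4.3.3), using TMM scaling, a minimum count of 10 and the quasi-likelihood test with Benjamini-Hochberg adjustment over all genes tested. Standard errors came from the fold change and its F statistic. HER2 states were compared in a fit with 2 groups, cell states in a fit of all 11 libraries, and treatment within a line on its own 4 libraries. DESeq2 1.42.0, other scalings and filters, and leaving out libraries were tried as alternatives, and scripts were tested on simulated data. CPM used the same scaling, and 3 counts equal 0.114 to 0.179 CPM. Counting error alone limits low values. Gene positions came from GENCODE M21 (GRCm38). Multi-mapping reads were shared by RSEM. Windows of 75 bases shared with other transcripts made up 35.8% of Atp5g2, 16.7% of Uqcrb, 14.6% of Ndufa12 and 0% of Cox6a2, Cox7a1, Ndufa4, Ndufa4l2, Sdhb and Ndufc2. Named genes were those called between HER2 states or in MamBo43, the extremes of each complex, core subunits and isoform pairs, and others were added after their values were seen. For 1 core subunit, the values are not reported here. Members and lists were chosen with earlier results of these data known.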

Additional observations from a re-analysis of the deposited data

Results flagged for a closer look

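In 143 groups of 4 to 6 libraries, 13 had a highest or lowest value far from the rest by Dixon's ratio of gap to range, where chance gives about 1 in 20. The AG3 culture accounted for 6 of them. It was high for Ndufa4 at 392 CPM when the other HER2-positive libraries lay between 148 and 186 CPM (ratio 0.845 among HER2-positive libraries and 0.845 within MamBo89). It was low for Cox4i1 at 239 CPM against 383 to 406 CPM (0.857), for Atp5g2 at 43.4 CPM against 71.7 to 76.6 CPM (0.852), and for the complex I sum at 2256 CPM (0.837 among HER2-positive libraries and 0.841 within MamBo89).

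Untreated MamBo43, the only library of its line in the HER2-positive group, was the highest there for Ndufa4l2 at 1.06 CPM (0.884), Uqcrc1 at 192 CPM (0.765), the complex II sum at 499 CPM (0.804) and the complex V sum at 4263 CPM (0.816). Among HER2-negative libraries, Atp5b was highest in MamBo43 after 60 days of trastuzumab at 2235 CPM (0.627), and Atp5g2 in the untreated MamBo38 library with the shared code at 160 CPM (0.684). Within MamBo38, Ndufv2 was highest after 60 days of trastuzumab at 53.0 CPM against 49.8 to 50.3 CPM (0.854).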

How the results depend on the processing

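No paired analysis was possible because the labels give no replicate numbers shared between groups. The counts of called genes stayed within 1.5 times the reported ones in every alternative for HER2 states, for MamBo38 against MamBo89, and for both MamBo43 trastuzumab comparisons. Leaving out single libraries gave 9 to 13, 13 to 14, 9 to 10 (MamBo43 against untreated) and 3 to 4 (against MamBo38). Counts by adjusted p alone moved more. For HER2 states, 15 higher and 21 lower became 12 lower with the shared code, 5 higher and 11 lower in untreated libraries, and 7 higher and 10 lower with tumor of origin as covariate (leave-one-out 13 to 15 higher and 19 to 24 lower). The share of all genes that passed in either direction was 60.3% as reported, and 43.3%, 31.5% and 36.2% in these fits, in that order. It was 55.1% to 63.8% with single libraries left out. MamBo38 against MamBo89 gave 8 higher and 13 lower with the shared code (leave-one-out 14 to 18 and 29 to 37). MamBo43 against untreated gave 6 higher with it (leave-one-out 6 to 21 higher, 21 without AG3, and 7 to 13 lower). MamBo43 against MamBo38 gave 7 higher and 0 lower with it and 1 lower without a filter (leave-one-out 17 to 42 and 1 to 4). Untreated MamBo43 against MamBo89 gave 4 higher and 3 lower with it, 4 lower without a filter and 0 calls with at least 10 counts in every library (leave-one-out 1 to 2 calls, 8 to 21 higher, 4 to 11 lower). The untreated MamBo43 library could not be left out of either comparison that needs it. Treatment gave 0 to 3 calls, 0 to 18 higher and 0 to 3 lower in MamBo89, and 0 to 1, 0 to 23 and 0 to 2 in MamBo38. The causes were not tested, apart from fewer libraries in some fits.

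Of 1476 values of single genes, 1363 kept sign and side of the threshold, 26 lost a call, 20 gained one, and 67 (of 18 genes) changed sign, with 0 past the threshold in the alternative and 1 (Cox5b) past it as reported. With DESeq2, Sdha was at 0.0054 and Ndufs1 at 0.00021. With RLE size factors, Sdha was at 0.0055 and Ndufs1 at 0.00019. Without a filter, Sdha was at 0.0036. With at least 10 counts in every library, Sdha was at 0.0077 and Ndufs1 at 0.0033. With the shared code, Sdha was at 0.11, Ndufv2 at 0.29, Ndufs1 at 0.11 and Ndufs8 at 0.059. In tumor B libraries, Cox5a was at −0.040, Ndufs3 at 0.30, Atp5g1 at −0.047, Uqcrc1 at −0.46, Cox7a2 at 0.14, Cox8a at −0.059, Ndufv1 at −0.18, Uqcrfs1 at 0.13 and Cox6a1 at −0.046. In untreated libraries, Cox5a was at −0.055, Uqcrc1 at −0.22, Ndufv1 at −0.18, Uqcrfs1 at 0.14, Cox6a1 at −0.044 and Cox5b at −0.0061. Without AG3, Sdha was at 0.031, Ndufs1 at 0.11, Cox4i1 at −0.040, Cox8a at −0.014 and Cox6a1 at −0.0074. With tumor of origin as covariate, Cox5a was at −0.013, Ndufs3 at 0.33, Atp5g1 at −0.021, Uqcrc1 at −0.44, Cox7a2 at 0.17, Cox8a at −0.031, Ndufv1 at −0.15, Uqcrfs1 at 0.16 and Cox6a1 at −0.019. Without AG3 and the MamBo38 library with the shared code (chosen after seeing the data), Sdha was at 0.078, Ndufs1 at 0.088 and Cox4i1 at −0.030. Leaving out single libraries, sign-changing genes ranged as follows between HER2 states, Sdha from −0.076 to 0.12, Ndufs1 from −0.073 to 0.11, Ndufv2 from −0.32 to 0.0021, Ndufs8 from −0.098 to 0.070, Uqcrc1 from −0.012 to 0.22, Uqcrfs1 from −0.087 to 0.025, Cox4i1 from −0.040 to 0.11, Cox8a from −0.014 to 0.15, Cox6a1 from −0.0074 to 0.19 and Cox7a2 from −0.22 to 0.00086. In treated against untreated MamBo43, Cox7b from −0.15 to 0.066, Uqcrc2 from −0.11 to 0.00046 and Ndufb11 from −0.16 to 0.061. The median of Ndufa4's neighbours was −1.06 within 0.5 Mb and −0.24 within 2 Mb.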
